A study of Mus musculus with 24 samples.

Results

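Exercise was set against sham treatment at ZT15 in the 12 libraries of that time, 6 labelled RUN and 6 labelled SED, out of 24 libraries of the inguinal white adipose tissue of mice. ZT is the hour since lights came on: at ZT3 this nocturnal animal has begun to rest, and at ZT15 it has become active. All 4 groups were male C57BL6 mice of 10 to 11 weeks without a transgene or drug in the labels. RUN animals had a bout of 1 h of exercise, and SED animals spent the same time on an artificial treadmill; at ZT15 the bout took place in darkness, lit by a red lamp. The labels give ZT as the time of sampling and do not give the hour after the bout for these libraries. The labels do not state in words that each library is 1 mouse, so p-values measure the spread between libraries. Library names such as ZT15_RUN_3 end in a number given in record order, and these numbers pair no samples.

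Inguinal fat is a subcutaneous depot of adipocytes with vessels, nerve fibres and connective tissue around a lymph node, lying next to skeletal muscle. During exercise, catecholamines act on adipocyte beta-adrenergic receptors and raise cyclic AMP, which drives lipolysis and, through protein kinase A, the transcription factor CREB. CREB and the growth factor and stress kinases turn on immediate early genes within minutes, many of which encode transcription factors, followed by feedback inhibitors of the same pathways. Glucocorticoids, which also rise with exertion, act through a nuclear receptor on a partly overlapping set of genes.

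Values are normalized reads (deposited signal, scaled to a common library size). Differences are RUN minus SED on log2(value + 1) with the SE of a limma model over the 24 libraries, and adjusted p-values are Benjamini-Hochberg over all 16233 genes, with a threshold of 0.05. Where 3 values are given for a group, they are the lowest, the median and the highest of its 6 libraries. Depth was 18.5 to 34.7 M (mega) reads per library in these genes, lowest in ZT15_RUN_5. Adipoq, the adipocyte hormone adiponectin, was abundant in all 12 ZT15 libraries, at 1223 to 3105. Some libraries stood apart in neighbouring tissues. Cd79a, part of the B cell receptor, reached 14.1 in ZT15_SED_3 and 54.6 in ZT15_SED_5 and was at most 1.33 elsewhere at ZT15. Summed over 18 measured lymphocyte markers, none of which was at 0 throughout a ZT15 group, the level was 16.2 to 1462 in ZT15 SED and 12.8 to 25.0 in ZT15 RUN. Myh4, a fast skeletal muscle myosin, was above 5000 in ZT15_SED_1 (18297), ZT15_RUN_1 (8995) and ZT15_RUN_6 (22113). Summed muscle markers (16 genes) were 230.0 to 79054 in ZT15 SED and 459 to 98562 in ZT15 RUN. Ucp1, a marker of brown or beige adipocytes, was 208 in ZT15_SED_1, 532 in ZT15_RUN_1 and 526 in ZT15_RUN_6. It was at most 73.8 elsewhere at ZT15, so the libraries high in Myh4 were also those highest in Ucp1. In bulk tissue, fewer cells of a type and less RNA per cell cannot be told apart.

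At ZT15, 104 of the 16233 genes passed the threshold, 0.641% of those tested. Of these 78 were higher after exercise (0.481%) and 26 were lower (0.16%). The higher genes were led by transcription factors and signalling genes of the immediate early kind, and 11 of the 26 lower genes belonged to the Zfp zinc finger family. The sizes were unequal: the higher genes had a median log2 difference of 0.90 (0.25 to 3.28) and the lower ones of -0.49 (-0.84 to -0.36). At an unadjusted p under 0.05 there were 1079 higher genes (6.65%) and 976 lower genes (6.01%). All 6 exercised libraries lay above all 6 sham libraries in 163 genes (1%) and below them in 121 (0.745%). Among the called genes the groups did not overlap in 61 of 78 higher and 20 of 26 lower genes. The split of higher and lower calls was 67 and 5 with quantile normalization, 139 and 16 with centring on library medians, and 329 (2.2% of the genes it adjusted) and 232 (1.55%) with DESeq2, while edgeR called 94 (0.579%) and 27 (0.166%). Without the 3 libraries high in Cd79a, the count was 22 genes (16 higher, 6 lower), of which 21 were among the 104. Without the 3 ZT15 libraries high in Myh4, limma called 0 genes. Of all genes 1708 then had an unadjusted p under 0.05, and the lowest adjusted p was 0.0594, so that each call named below was lost in that setting. The 78 genes then had a median difference of 0.90 and the 26 of -0.52, and the sign of all 104 was kept in each of the 37 alternative settings run. These settings reuse most or all of the libraries that chose the genes. A kept sign was thus close to given in advance and is no separate support.

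**Figure D1:**
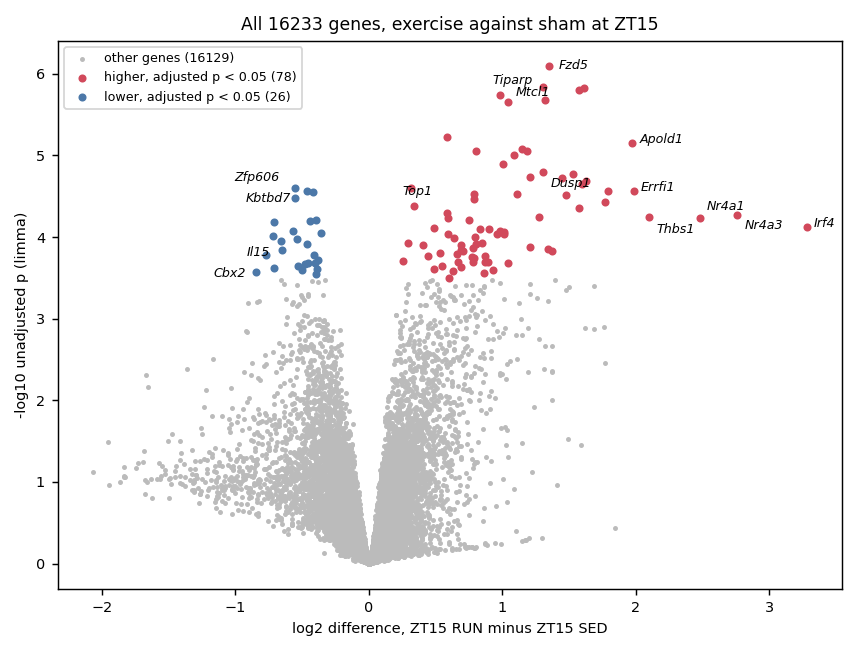
Each point is 1 of 16233 genes, by its log2 difference (ZT15 RUN minus ZT15 SED, x axis) and the negative log10 of its unadjusted limma p (y axis). The 78 red points reach 3.28 at Irf4 on the right, and the 26 blue points stay between -0.84 and -0.36.

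Transcription factors held the largest differences. Irf4 (ENSMUSG00000021356), a member of the interferon regulatory factor family that in adipocytes is known as a nutrient-responsive regulator of lipolysis, was at 59.2, 78.3 and 145 after sham and 182, 1107 and 1744 after exercise. No exercised library overlapped the sham range, although ZT15_RUN_3 lay far below the other 5, which were at 605 or more. The log2 difference was 3.28 ± 0.68 (95% interval 1.87 to 4.69, limma adjusted p = 0.0271). It was 3.56 without the libraries high in Cd79a (adjusted p = 0.0605) and 3.02 without those high in Myh4 (adjusted p = 0.196).

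Nr4a3 (ENSMUSG00000028341) and Nr4a1 (ENSMUSG00000023034), nuclear receptors that bind DNA without a known hormone and are induced by cyclic AMP and calcium, rose. Nr4a3 ranged from 2.37 to 8.48 in the sham libraries, with a median of 3.99, and from 9.35 to 76.1 in the exercised libraries, with a median of 46.4. Nr4a1 ranged from 4.69 to 27.6 in the sham libraries, with a median of 10.7, and from 20.8 to 176 in the exercised libraries, with a median of 58.9. Nr4a3 was higher in every exercised library than in any sham library, whereas for Nr4a1 the library ZT15_RUN_3 lay below ZT15_SED_1. The differences were 2.76 ± 0.56 and 2.48 ± 0.50 (both adjusted p = 0.0237). The remaining family member Nr4a2 had 2.24, 3.66 and 6.22 after sham and 5.28, 9.15 and 30.8 after exercise, a difference of 1.40 ± 0.33 that missed the threshold (adjusted p = 0.0503). Its values were highest in ZT15_RUN_1 (30.8) and ZT15_RUN_6 (24.6), the exercised libraries high in Myh4. Vdr, the vitamin D receptor, was the third nuclear receptor past the threshold of 35 on the list, at 0.446, 0.797 and 1.37 after sham and 1.70, 4.45 and 7.03 after exercise (1.57 ± 0.31, adjusted p = 0.0212). It was low in both groups, and its groups did not overlap. The other 32 receptors did not pass, and the list's median of 0.06 was near the 0.00 of all genes.

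Bzip factors of the AP-1 and CREB families also rose. Fosl2 ranged from 57.7 to 109 in the sham libraries, with a median of 75.5, and from 141 to 268 in the exercised libraries, with a median of 220.4 (1.45 ± 0.27, adjusted p = 0.0169). Fosl2 encodes Fra-2, a partner of Jun proteins. Crem, whose short product ICER represses CREB targets, had 15.8, 18.4 and 21.0 after sham and 23.8, 48.4 and 56.1 after exercise (1.21 ± 0.22, adjusted p = 0.0169). Neither gene overlapped between groups, and ZT15_RUN_3 was the lowest exercised library in both. Maff, a small Maf protein, had 3.46, 4.09 and 7.26 after sham and 4.69, 14.2 and 22.2 after exercise (1.34 ± 0.29, adjusted p = 0.0326), and here ZT15_RUN_3 fell within the sham range. Jdp2, a Jun dimerization partner that represses AP-1, went from a median of 20.0 (13.8 to 25.1) to 41.7 (32.9 to 48.9), with no overlap (1.01 ± 0.21, adjusted p = 0.0271). Of 15 AP-1 subunits on the list, 12 had differences above 0 (median 0.42) and 2 passed, Fosl2 and Maff. Fos, the subunit most used as a marker of recent activity, had 4.07, 9.53 and 19.3 after sham and 13.2, 19.5 and 62.8 after exercise, and its groups overlapped (1.15 ± 0.51, adjusted p = 0.344). Egr1, another immediate early factor, had 7.85, 13.8 and 18.3 after sham and 13.8, 19.9 and 60.5 after exercise with the highest value in ZT15_RUN_1 (0.75 ± 0.52, adjusted p = 0.575). Of the 22 immediate early genes listed, 21 were above 0 with a median of 0.85, against 50.7% of all genes above 0 and a median of 0.00, and 4 passed (Nr4a1, Nr4a3, Maff and Dusp1). Without the Cd79a-high libraries 22 of 22 were above 0 (median 1.04) and 1 passed, and without the Myh4-high libraries 21 were above 0 (median 0.65) and 0 passed. At ZT3 10 of the 22 were above 0 (median -0.21).

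**Figure D2:**
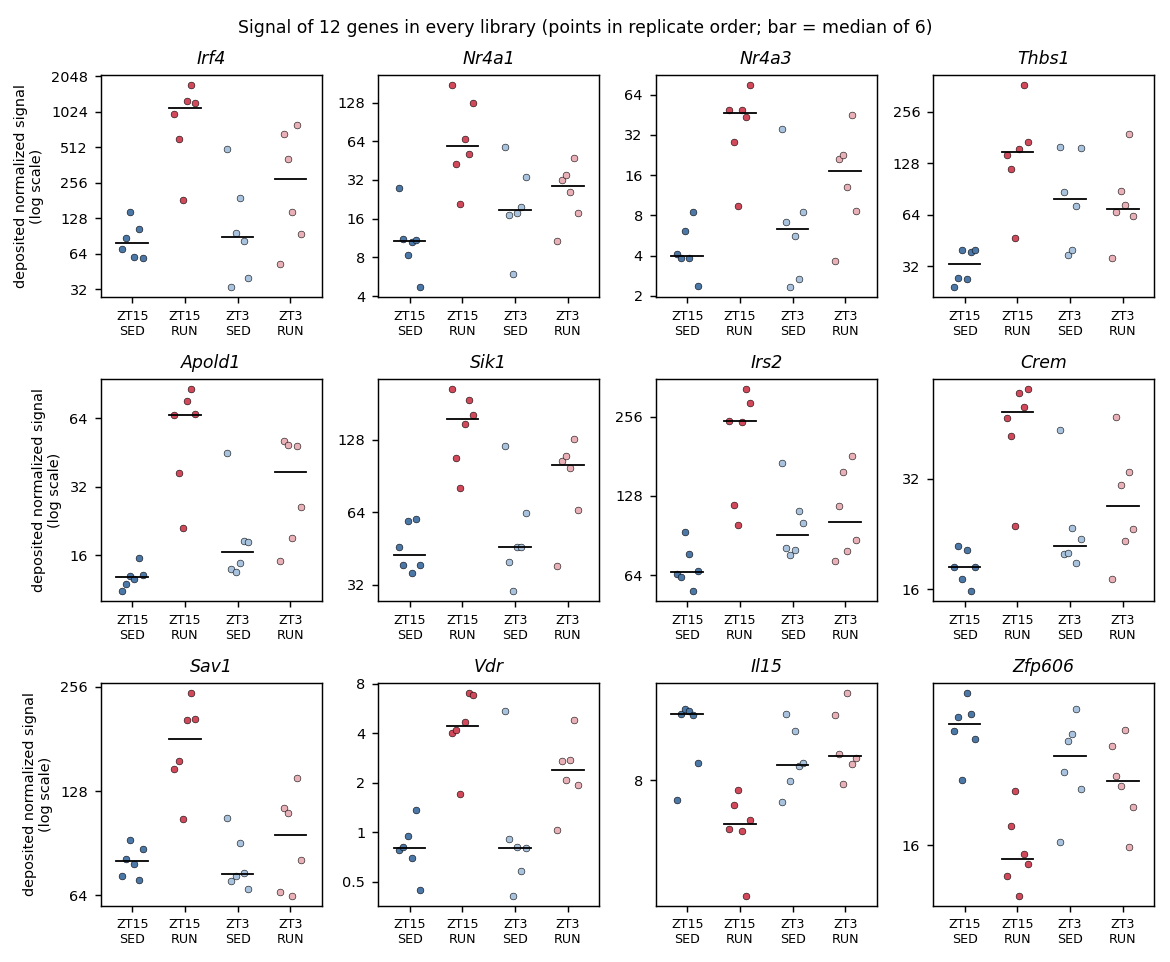
Deposited normalized signal (log2-spaced y axis) of 12 genes in each of the 24 libraries, in 4 groups of 6, with the median as a bar. For Irf4, Nr4a3, Thbs1, Apold1, Sik1, Irs2, Crem, Sav1 and Vdr every ZT15 RUN point lies above every ZT15 SED point, for Nr4a1 1 exercised point lies below the highest sham point, and the points of Il15 and Zfp606 lie lower after exercise.

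Several of the higher genes belong to the cyclic AMP pathway or to its feedback. Sik1, a kinase that CREB induces and that holds CREB's coactivators in the cytoplasm, had 35.8, 42.4 and 59.8 after sham and 80.7, 156 and 209 after exercise (1.63 ± 0.30, adjusted p = 0.017). Irs2, the insulin receptor substrate that CREB and FOXO factors induce in fasting, had 55.7, 65.8 and 93.5 after sham and 99.0, 246 and 326 after exercise (1.53 ± 0.28, adjusted p = 0.0169). The groups of both genes were fully separate, with ZT15_RUN_3 lowest after exercise. Of 28 genes of cyclic AMP signalling and CREB targets, 25 were above 0 (median 0.49) and 5 passed: Sik1, Irs2, Crem, Nr4a1 and Nr4a3. That median was 0.48 both without the Cd79a-high libraries (1 passed, Sik1) and without the Myh4-high libraries (0 passed). Akap12, a scaffold that anchors protein kinase A, rose by 0.77 ± 0.17 from a median of 116 (98.7 to 140.3) to 192 (158 to 264). Among 16 adrenergic and lipolytic receptors none passed with limma, 2 were higher and 1 lower at an unadjusted p under 0.05, and edgeR called 1 and DESeq2 1 in each direction. Adrb3, the main beta receptor of rodent fat, differed by -0.11 ± 0.22 (adjusted p = 0.888). Irs2 was the 1 member past the threshold among 29 insulin signalling genes, whose median was 0.04.

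Promoters of the higher genes were read for short motifs of these factors, because the genes moved together. RefSeq windows on build GRCm38.p6, from 250 bases before to 50 after a start, were found for 53 of the 78 higher genes (60 windows) and 19 of the 26 lower genes (20 windows), beside 15554 windows of 12288 tested genes. The motifs were chosen with the results known, both strands were read, and a match describes letters and is not a bound site. The cyclic AMP response element TGACGTCA was in 5 of 60 windows of higher genes (8.33%), those of Dusp1, Errfi1, Maff, Paqr3 and Zbtb21, in 1 of 20 windows of lower genes (Wdr5b) and in 2.76% of all windows. Its short form TGACG, which lies within the full element, was in 40% of the windows of both higher and lower genes and in 28.2% of all. The E-box CACGTG was in 15 of 60 windows of higher genes (25%), in 0 of 20 of lower genes and in 9.3% of all windows. Limited to the 250 bases before the start, the E-box shares in higher, lower and all windows were 23.3%, 0% and 7.82%. Those of the full element were 6.67%, 0% and 2.36%. Those of the short form were 33.3%, 25% and 24.2%, so the equal share of higher and lower genes held only in the longer window. Base composition differed too: median GC was 63.3% in windows of higher genes, 55.2% in those of lower genes and 59.7% in all. Its part in the motif shares was not tested. The AP-1 motif TGANTCA was in 3.33% of higher windows and 5.73% of all, the FOXO motif TGTTTAC in 3.33% and 2.64%, the CArG box of serum response factor in 1.67% and 1.35%, the palindromic glucocorticoid response element in 0% and 0.424%, and the Nr4a motif AAAGGTCA in 0% and 1.1%.

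The stretches below show how these letters are placed in the promoters of 8 higher genes, picked from those that hold them. Each stretch is read 5′ to 3′ on the strand of the gene, with full elements, short forms and E-boxes in capitals. For Irf4, Thbs1, Sik1, Crem, Fosl2 and Vdr no such match was found, either within a window or for want of one. Nr4a1 (chr15:101266596-101266845, plus strand) and Nr4a3 (chr4:48045055-48045184, plus strand) hold 4 short forms each. Dusp1 (chr17:26508573-26508672, minus strand), Errfi1 (chr4:150854970-150855069, plus strand) and Maff (chr15:79347320-79347519, plus strand) hold a full element, which in Dusp1 and Maff stands with an E-box. Irs2 (chr8:11008930-11009029, minus strand), Gadd45g (chr13:51846495-51846594, plus strand) and Coq10b (chr1:55052650-55052769, plus strand) hold an E-box, next to 3 short forms in Coq10b.
Nr4a1: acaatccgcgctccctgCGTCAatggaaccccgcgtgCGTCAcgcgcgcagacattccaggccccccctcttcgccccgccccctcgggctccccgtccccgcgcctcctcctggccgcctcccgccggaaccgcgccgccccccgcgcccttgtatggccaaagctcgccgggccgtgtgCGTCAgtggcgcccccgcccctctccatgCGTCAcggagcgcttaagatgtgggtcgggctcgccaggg
Nr4a3: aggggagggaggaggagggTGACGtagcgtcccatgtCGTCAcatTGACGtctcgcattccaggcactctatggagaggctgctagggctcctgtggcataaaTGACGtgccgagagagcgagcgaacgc
Dusp1: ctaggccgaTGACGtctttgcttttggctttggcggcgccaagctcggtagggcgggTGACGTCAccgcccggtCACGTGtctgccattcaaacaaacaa
Errfi1: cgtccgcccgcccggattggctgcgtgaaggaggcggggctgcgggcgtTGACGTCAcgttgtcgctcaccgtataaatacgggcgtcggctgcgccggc
Maff: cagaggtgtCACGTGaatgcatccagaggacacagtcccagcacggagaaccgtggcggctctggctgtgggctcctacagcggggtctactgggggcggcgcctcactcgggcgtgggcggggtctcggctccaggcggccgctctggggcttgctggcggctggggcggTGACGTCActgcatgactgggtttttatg
Irs2: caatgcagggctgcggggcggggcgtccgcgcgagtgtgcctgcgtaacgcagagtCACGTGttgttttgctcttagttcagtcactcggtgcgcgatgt
Gadd45g: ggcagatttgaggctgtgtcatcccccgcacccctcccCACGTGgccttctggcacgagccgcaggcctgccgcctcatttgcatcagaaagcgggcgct
Coq10b: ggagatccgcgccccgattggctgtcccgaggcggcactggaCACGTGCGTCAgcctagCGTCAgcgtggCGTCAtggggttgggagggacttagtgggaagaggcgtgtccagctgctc

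Inhibitors of growth factor and MAP kinase signalling were a further group. Errfi1, which binds and blocks the EGF receptor, had 43.6, 74.2 and 96.7 after sham and 167, 299 and 415 after exercise (1.98 ± 0.38, adjusted p = 0.017). Dusp1, a phosphatase that switches off p38 and JNK, had 25.9, 38.6 and 53.6 after sham and 76.5, 85.9 and 166 after exercise (1.31 ± 0.24, adjusted p = 0.0169). All exercised libraries lay above all sham libraries in both genes, and Dusp1 passed when any single library was left out. Dusp16, a phosphatase of JNK, went from a median of 57.6 (44.3 to 63.7) to 86.2 (68.8 to 111) (0.63 ± 0.15, adjusted p = 0.0418). Of 19 listed feedback genes, 15 were above 0 with a median of 0.23, and these 3 passed. Paqr3, a Golgi protein that tethers Raf kinases, went from a median of 4.49 (3.84 to 4.82) to 8.99 (5.59 to 12.1) (0.83 ± 0.17, adjusted p = 0.0271). Gadd45g, a stress and growth arrest gene that activates p38 signalling, had 8.85, 11.3 and 27.4 after sham and 25.7, 50.9 and 88.0 after exercise (1.77 ± 0.35, adjusted p = 0.0188). The sham library ZT15_SED_1 lay above the lowest exercised library, ZT15_RUN_3, and the other sham libraries did not overlap. It was the only member past the threshold among 26 growth arrest and p53 targets, of which 18 were above 0.

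Errfi1 and Dusp1 are also known targets of the glucocorticoid receptor, and they were the 2 members past the threshold among 20 glucocorticoid-responsive genes. All 20 had differences above 0 (median 0.72), 14 of them with an unadjusted p under 0.05. Of all genes 50.7% were above 0, and 6.65% were higher at an unadjusted limma p under 0.05. Among the 20, edgeR called 3 higher and DESeq2 8. At ZT3, in other libraries, all 20 were above 0 as well (median 0.40), against 51.8% of all genes. Without the Cd79a-high libraries 18 were above 0 (median 0.84), and without the Myh4-high libraries 20 (median 0.69). The textbook markers Fkbp5 and Tsc22d3 did not pass: Fkbp5 had 153, 189.6 and 246 after sham and 206, 258 and 357 after exercise (0.52 ± 0.30, adjusted p = 0.491), and Tsc22d3 differed by 0.49 ± 0.25 (adjusted p = 0.412). Fkbp5 overlapped between the groups and Tsc22d3 did not. Pdk4, which restrains pyruvate oxidation, had 252, 413 and 513 after sham and 441, 991 and 2298 after exercise and its highest value in ZT15_RUN_6, a library high in Myh4 (1.34 ± 0.34, adjusted p = 0.0613).

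Single genes of the Wnt and Hippo pathways were among the calls: the Wnt receptor Fzd5 and the Hippo regulators Sav1 and Vgll4. Fzd5 ranged from 16.4 to 29.5 in the sham libraries, with a median of 19.8, and from 33.6 to 96.8 in the exercised libraries, with a median of 52.6. Its groups did not overlap. Its difference was 1.35 ± 0.20 (adjusted p = 0.00508), and it passed when any single library was left out (highest adjusted p 0.02, without ZT15_SED_1). Its adjusted p was 0.0337 without the Cd79a-high libraries and 0.0681 without the Myh4-high ones. It was the 1 gene past the threshold among 37 Wnt ligands, receptors and antagonists, of which 21 were above 0 (median 0.09), and 15 without the Cd79a-high libraries (median -0.03). No list of Hippo genes was used. Sav1, the scaffold of the Hippo kinases, had 71.1, 80.2 and 92.2 after sham and 106, 181 and 246 after exercise (1.09 ± 0.19, adjusted p = 0.0122). Vgll4, a TEAD cofactor that opposes YAP, went from a median of 70.7 (65.9 to 79.9) to 127 (74.6 to 169) (0.70 ± 0.15, adjusted p = 0.0333). Sav1 was fully separate between groups, whereas the lowest exercised library of Vgll4 fell inside the sham range. Of 28 mechanosensitive genes and targets of SRF or YAP, 24 were above 0 (median 0.30), and Thbs1 alone passed.

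Some secreted and matrix proteins were among the calls, while most members of the matrix lists did not pass. Thbs1, thrombospondin-1, a matrix glycoprotein that activates TGF-beta, had 24.2, 33.1 and 39.8 after sham and 47.0, 149.8 and 369 after exercise (2.10 ± 0.43, adjusted p = 0.0237). ZT15_RUN_3 was just above the sham range and ZT15_RUN_5 far above the other exercised libraries. The proteoglycan-cleaving proteases Adamts1 and Adamts4 went from a median of 55.6 (39.9 to 63.4) to 122 (73.6 to 163) and from a median of 2.30 (2.05 to 3.53) to 5.74 (4.03 to 12.1), with differences of 1.11 ± 0.21 and 1.04 ± 0.23 and no overlap between groups. They were the 2 called of 34 matrix proteases, inhibitors and crosslinkers (25 above 0, median 0.24), a median that was 0.08 without the Cd79a-high libraries and 0.48 without the Myh4-high ones. Lrrc32, which anchors latent TGF-beta on the cell surface, went from a median of 12.4 (9.99 to 15.3) to 25.5 (15.5 to 42.2) (1.01 ± 0.18, adjusted p = 0.0147). Of 27 collagen genes 24 were above 0 (median 0.19). That median was 0.11 without the Cd79a-high libraries (21 above 0) and 0.01 with the lymphocyte and muscle marker scores added as covariates (15 above 0). None passed with limma, edgeR or DESeq2, and 1 was higher at an unadjusted p under 0.05.

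Apold1, an early response gene of endothelial cells, had 11.1, 12.8 and 15.5 after sham and 21.1, 66.5 and 86.2 after exercise (1.97 ± 0.34, adjusted p = 0.0121), with no overlap. It was the 1 of 16 endothelial markers past the threshold, and the median of that list was 0.11, with 13 above 0, and 0.01 with the covariates, with 9 above 0. Summed endothelial markers were 742 to 947 in ZT15 SED and 824 to 1212 in ZT15 RUN. Hdc, the enzyme that makes histamine, had 1.89, 2.89 and 5.47 after sham and 6.10, 11.7 and 17.0 after exercise (1.60 ± 0.30, adjusted p = 0.017), again with no overlap. Vegfa, the main vessel growth factor, had 157, 218 and 239 after sham and 214, 523 and 845 after exercise and missed the threshold (1.14 ± 0.30, adjusted p = 0.0819). Sema4c, a semaphorin, and Epha1, an ephrin receptor, rose by 0.69 ± 0.15 and 0.59 ± 0.12.

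Enzymes and cell machinery made up much of the rest. Noct, nocturnin, a rhythmic phosphatase of NADPH, had 50.9, 62.7 and 84.0 after sham and 94.9, 158 and 233 after exercise (1.21 ± 0.26, adjusted p = 0.0319). Tiparp, an ADP-ribosyltransferase that limits the aryl hydrocarbon receptor, had 59.5, 83.7 and 90.4 after sham and 113, 164 and 201 after exercise (0.98 ± 0.15, adjusted p = 0.00508). Both were fully separate between groups, and Tiparp also passed when any single library was left out and without the Cd79a-high libraries (adjusted p = 0.0328). Coq10b, which binds coenzyme Q in mitochondria, went from a median of 33.1 (26.4 to 35.1) to 67.8 (39.4 to 91.3) (0.96 ± 0.20), and Letm2, a mitochondrial membrane protein, from a median of 12.2 (11.0 to 15.4) to 32.4 (19.4 to 37.1) (1.15 ± 0.20). Picalm, a clathrin assembly protein, had the highest mean signal after sham of the 104 genes, going from a median of 489.7 (447 to 575) to 911 (616 to 1044) (0.79 ± 0.15, adjusted p = 0.0178). Among smaller changes, Irf2bp2, a transcriptional corepressor, rose by 0.60 ± 0.14, and Zfp516, a zinc finger factor known from brown fat, by 0.69 ± 0.15. Among the smallest differences past the threshold were Top1, a DNA topoisomerase (0.34 ± 0.07), Azin1, which spares the polyamine enzyme ornithine decarboxylase (0.32 ± 0.06), Aff4, a scaffold of transcription elongation (0.29 ± 0.06), and Ist1, of the ESCRT machinery (0.25 ± 0.06). Aff4, Ist1 and Azin1 each overlapped the sham range, and Top1 did not.

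Of the 78 higher genes, 61 are protein coding in GENCODE M21 and 18 carry a Gm or Rik symbol. Several of the latter lie in or beside other genes. Gm19221 (1.57 ± 0.24) and Gm3086 (1.32 ± 0.21) lie on the strand opposite Sav1, Gm15737 (1.48 ± 0.28) and A730049H05Rik (1.37 ± 0.30) opposite Adamts9, Gm16159 (1.61 ± 0.25) opposite Fgfr1 and Gm17230 (1.79 ± 0.34) opposite Pde7b. Gm17971 (1.01 ± 0.21) is a processed pseudogene on the same strand as Coq10b. Near Irs2, the transcripts 3930402G23Rik (1.27 ± 0.26) and 4833411C07Rik (1.31 ± 0.20) were higher too. Atg101, a subunit of the autophagy initiation complex, and Smim41 are neighbours of Nr4a1 and rose by 0.93 ± 0.22 and 0.69 ± 0.16. The strand setting of the counting is not given in the sources used here, so the reads of overlapping genes cannot be told apart.

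**Figure D3:**
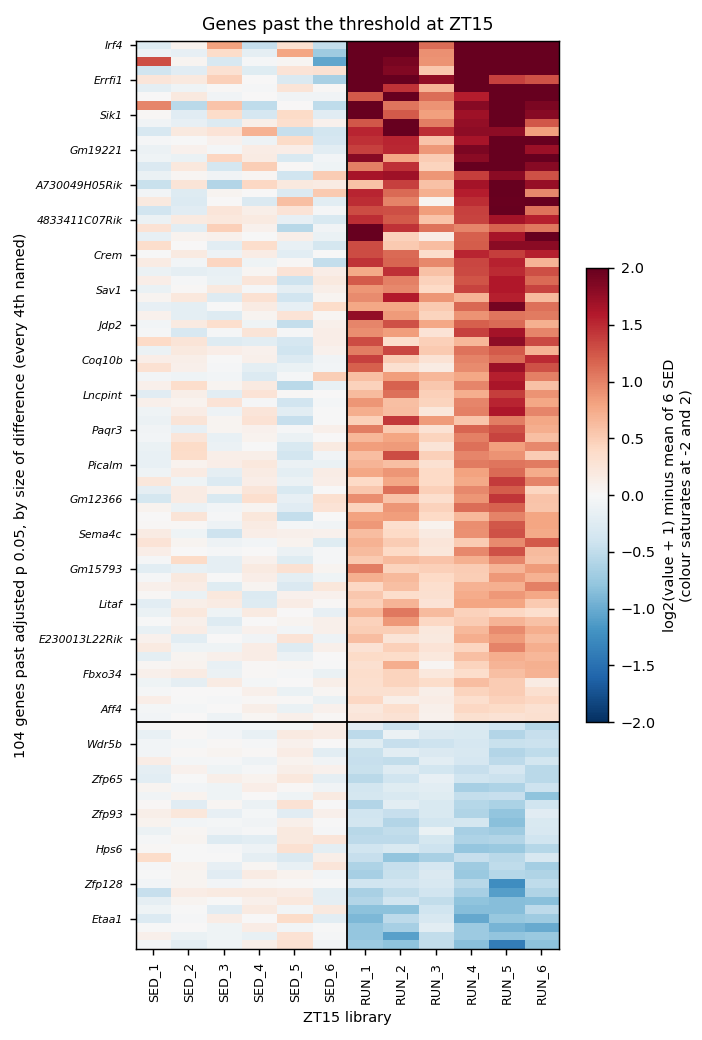
Each row is 1 of the 104 genes past the threshold, ordered by size, and each column 1 of the 12 ZT15 libraries, with the colour giving log2(value + 1) minus the mean of the 6 sham libraries. The column ZT15_RUN_3 is paler than the other 5 exercised columns, with a median of 0.45 over the 78 higher genes, and ZT15_RUN_5 the deepest, with 1.37.

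The 26 lower genes had smaller differences. Cbx2, a Polycomb subunit that binds methylated histone H3, had 2.73, 3.14 and 4.35 after sham and 0.661, 1.46 and 2.08 after exercise and fell by 0.84 on the log2 scale (SE 0.20, adjusted p = 0.0426). Sox4, a developmental transcription factor, had 4.15, 4.47 and 5.92 after sham and 1.67, 2.36 and 3.06 after exercise and fell by 0.77 (SE 0.17, adjusted p = 0.035). In both genes every exercised library lay below every sham library, at low signal. Il15, a cytokine of natural killer and memory T cells that muscle and fat also make, had 7.17, 11.5 and 11.8 after sham and 4.26, 6.29 and 7.61 after exercise. The exercised range overlapped ZT15_SED_1 alone, which was the lowest sham library and is high in Myh4. Il15 fell by 0.65 (SE 0.14, adjusted p = 0.0331), by 0.57 without the Cd79a-high libraries and by 0.75 without the Myh4-high libraries, with adjusted p of 0.106 and 0.124. It was the 1 called of 36 cytokines, chemokines and NF-kB targets, whose median was 0.00. Etaa1, an activator of the ATR checkpoint kinase, and Lratd2 both fell by 0.71, with adjusted p of 0.0407 and 0.0241, and neither overlapped between groups. Among smaller falls were Hps6, a subunit of a lysosome-related organelle complex (0.53), Kbtbd7, a substrate adaptor of cullin ligases (0.47), and Slx1b, a subunit of a structure-specific nuclease (0.36).

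The 11 lower zinc finger genes were Zfp763, Zfp128, Zfp606, Zfp647, Zfp454, Zfp930, Zfp93, Zfp526, Zfp235, Zfp65 and Zfp120. Most Zfp genes encode DNA-binding proteins, many of which carry a KRAB domain and silence transposable elements. Zfp763 had 9.34, 9.98 and 11.2 after sham and 4.47, 5.52 and 8.55 after exercise and fell by 0.72 (SE 0.15, adjusted p = 0.0281). Zfp128 had 6.86, 7.26 and 7.48 after sham and 2.46, 4.97 and 5.59 after exercise and fell by 0.57 (SE 0.12, adjusted p = 0.0271). In both genes the exercised libraries lay below all sham libraries. Of 333 measured Zfp genes, 262 had differences below 0 against 49.3% of all genes, with a median of -0.17 against 0.00. Of them 11 passed lower, 3 passed higher (Zfp948, Zfp516 and Zfp655), and 127 were lower at an unadjusted p under 0.05. The median was -0.16 without the Cd79a-high libraries and -0.17 without the Myh4-high ones, where the 11 lower calls became 4 and 0. They became 1 without ZT15_RUN_5, 31 without ZT15_RUN_3 and 4 with only the ZT15 libraries fitted. The median was -0.12 with quantile normalization and -0.11 with centring on library medians, which left 2 and 6 lower calls. At ZT3 the same genes had a median of -0.01, with 152 above 0. Zfp genes were not compared with other families of like length or signal.

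Gene structure is given as a description, without a test. Among 25 protein-coding lower genes, 5 have a single exon in GENCODE M21 (20%): Sox4, Hps6, Kbtbd7, F8a and Wdr5b. The share was 2.33% of 14622 protein-coding genes tested and 1.64% of 61 higher genes. The median of the largest exon number per gene was 4 in lower, 7 in higher and 9 in all tested genes, and 5 in the Zfp genes. Sham means of the lower genes were 1.14 to 27.9, so that all were of modest signal.

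No member of the lists of fat metabolism and the respiratory chain passed. None of 28 fatty acid oxidation genes passed (26 above 0, median 0.21), and none of 38 respiratory chain genes (38 above 0, median 0.12). Without the ZT15 libraries high in Myh4, whose muscle markers had a median difference of 0.80 with all libraries in, 12 of 28 and 1 of 38 were above 0, with medians of -0.01 and -0.08. In the thermogenic and beige list, 15 of 22 were above 0 with all libraries and 4 without those. The libraries left out were also the highest in Ucp1 at ZT15, so muscle-rich and Ucp1-rich libraries left the fit together. The separate parts of muscle and beige fat in these lists were not tested. Ppargc1a, a coactivator of mitochondrial genes, had 12.3, 17.5 and 42.5 after sham and 14.9, 51.1 and 218 after exercise, with its highest values in ZT15_RUN_6 and ZT15_RUN_1 (1.37 ± 0.49, adjusted p = 0.212). None of 20 genes of de novo lipogenesis passed (8 above 0, median -0.03). Scd1, the stearoyl-CoA desaturase, differed by 0.11 ± 0.62 and Fasn, fatty acid synthase, by -0.02 ± 0.37. None of 19 lipases and lipid droplet genes passed (15 above 0, median 0.19), and Pnpla2, adipose triglyceride lipase, differed by 0.20 ± 0.20. Lpin1, a phosphatidate phosphatase of triglyceride synthesis, had 604, 719.6 and 868 after sham and 894, 1141 and 1479 after exercise. Its groups did not overlap, but it missed the threshold (0.66 ± 0.20, adjusted p = 0.122). At an unadjusted limma p under 0.05, 1 lipase or lipid droplet gene and 1 thermogenic gene were higher, and 0 genes of fatty acid oxidation, the respiratory chain and lipogenesis. In these 5 lists edgeR called 0 and DESeq2 1, a thermogenic gene. The list that holds Lpin1, fatty acid uptake and triglyceride synthesis, had 18 of 23 genes above 0 (median 0.13). None of the 23 passed with limma or edgeR, whereas DESeq2 called 2 higher. At an unadjusted limma p under 0.05, 4 were higher and 0 lower. Of 22 clock genes 19 were above 0 (median 0.16), and 0 passed with limma and edgeR and 3 with DESeq2, with 6 higher at an unadjusted p under 0.05. Without the Cd79a-high libraries 14 were above 0 (median 0.06), and with the covariates 14 (median 0.11). Per1, a clock gene that cyclic AMP and glucocorticoids induce, had 58.4, 73.5 and 100.4 after sham and 97.0, 134 and 172 after exercise (0.83 ± 0.29, adjusted p = 0.192).

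Of 36 genes listed as interferon-stimulated, 31 were below 0 (median -0.17). The 1 past the threshold was Irf4, the interferon regulatory factor described above, which rose. Its place on the list is no sign of an interferon response, which was not tested, and no other listed gene passed. The median was -0.15 without the Cd79a-high libraries (4 above 0), -0.09 without the Myh4-high ones (10 above 0) and -0.05 with the covariates (10 above 0). At ZT3, where ZT3_RUN_4 was high in Cd79a, 35 of 36 were above 0 (median 0.23, against 51.8% of all genes). Of 86 cytosolic ribosomal protein genes 84 were below 0 (median -0.15) and none passed. The lymphocyte markers moved with them, 18 of 18 below 0 with a median of -1.57. Without the Cd79a-high libraries the ribosomal median was -0.00 with 40 above 0, and the lymphocyte median -0.09. With the covariates 62 of the 86 were above 0 (median 0.03). Of 77 mitochondrial ribosomal proteins 37 were above 0 (median -0.00). Markers of Schwann cells and nerve were above 0 in 11 of 11 genes (median 0.33). In the ribosomal and nerve lists 0 genes passed with limma, edgeR and DESeq2, with 1 cytosolic ribosomal protein lower, 0 mitochondrial ribosomal proteins and 2 nerve markers higher at an unadjusted p under 0.05. Their part in the other results was not tested.

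**Figure D4:**
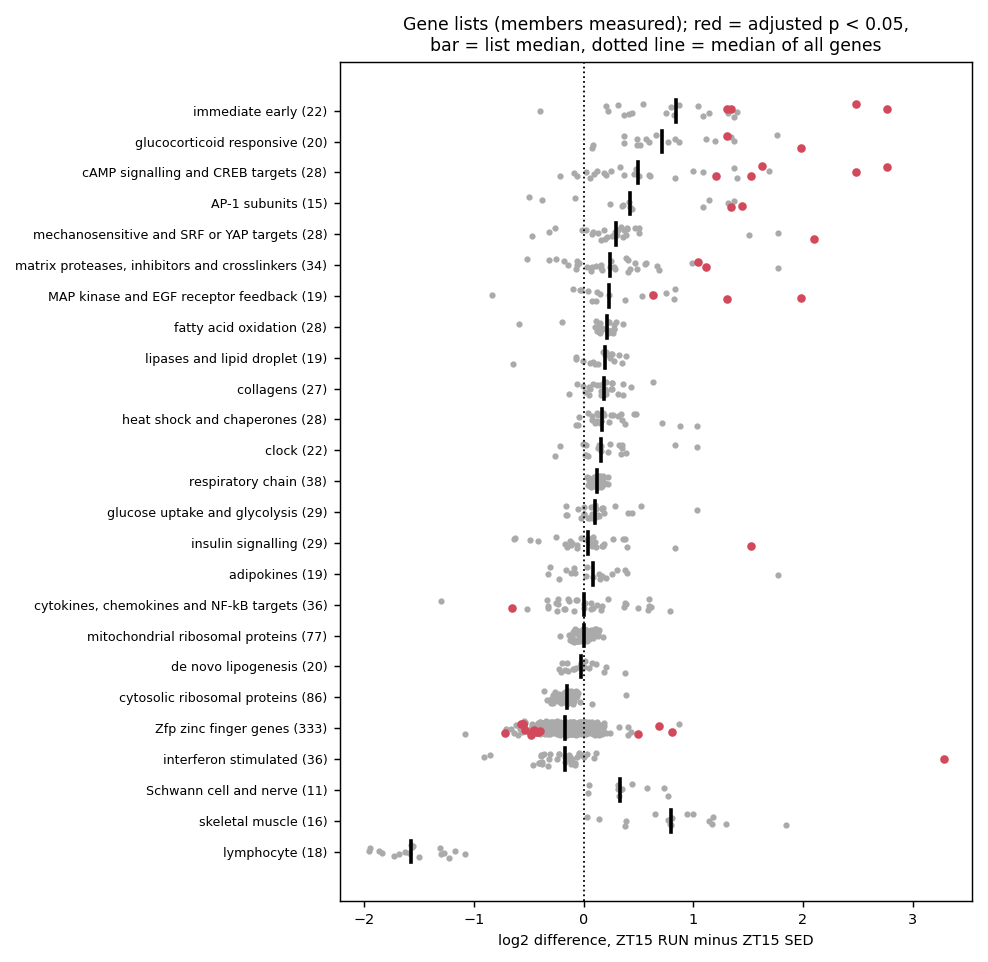
Each point is 1 measured gene of a list, by its log2 difference (ZT15 RUN minus ZT15 SED), with genes past the threshold in red, the list median as a bar and the median of all genes as a dotted line. Immediate early genes have a median of 0.85, glucocorticoid-responsive genes of 0.72 and Zfp genes of -0.17, and the lymphocyte markers lie at -1.57.

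The 6 exercised libraries differed in the size of the change over the called genes. For each library, the difference of each called gene from the mean of the 6 sham libraries was taken, as a description of libraries that also chose the genes. The median over the 78 higher genes was 0.45 in ZT15_RUN_3, 0.85 in ZT15_RUN_2, 0.87 in ZT15_RUN_1, 0.96 in ZT15_RUN_6, 0.98 in ZT15_RUN_4 and 1.37 in ZT15_RUN_5. ZT15_RUN_3 was the lowest exercised library for 59 of the 78 genes and ZT15_RUN_5 the highest for 47. ZT15_RUN_5 was also the library of least depth, and ZT15_RUN_3 was neither high in Myh4 nor in Cd79a. The SD of log2 values among exercised libraries exceeded that among sham libraries in 74 of the 78 higher genes (median SD 0.38 against 0.21), whereas it did so in 44.2% of all genes. These 78 genes were chosen for being higher after exercise, and 19 had a sham mean below 2, where log2(value + 1) narrows the spread. The SDs are thus a description and no support for an unlike response. Without ZT15_RUN_3 the count past the threshold was 271, without ZT15_RUN_5 17, and without ZT15_RUN_4 16. It was 53 without ZT15_RUN_1, 46 without ZT15_RUN_6 and 30 to 66 without 1 of the ZT15 sham libraries. Because the ZT3 libraries share the estimate of the spread, it was 293 without ZT3_RUN_4, the ZT3 library high in Cd79a, and 169 without ZT3_SED_1. In all, 14 genes, all higher, passed when any single library was left out: Apold1, Fzd5, Dusp1, Letm2, Sav1, Mtcl1, Tiparp, Zfp948, 4833411C07Rik and the transcripts Gm16159, Gm19221, Gm3086, Gm11513 and Gm17415.

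**Figure D5:**
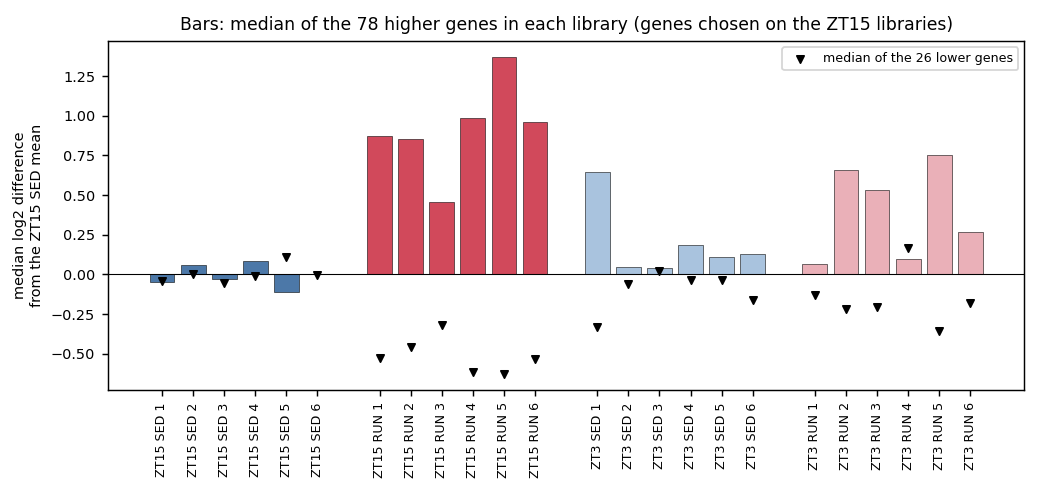
Bars give, for each of the 24 libraries, the median over the 78 higher genes of the log2 difference from the ZT15 sham mean, and triangles that over the 26 lower genes. The ZT15 exercised bars run from 0.45 to 1.37, and among ZT3 libraries ZT3_SED_1 (0.65) stands beside ZT3_RUN_5 (0.75), ZT3_RUN_2 (0.66) and ZT3_RUN_3 (0.53).

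The exercise difference at ZT15 was compared with that at ZT3, which uses 12 other libraries. At ZT3 limma called 0 genes, with 368 at an unadjusted p under 0.05 (2.27%), and edgeR and DESeq2 called 0. The difference between both times was tested as an interaction, and limma called 0 genes there too, with 1273 at an unadjusted p under 0.05 (7.84%) and no adjusted p lower than 0.583, whereas edgeR called 0 and DESeq2 239. With limma no gene was thus shown to differ in its response between the times. The largest differences at ZT15 had wide values at ZT3. Irf4 was at 33.2 to 492 in ZT3 SED and 52.2 to 788 in ZT3 RUN (1.20 ± 0.68), with an interaction of 2.08 ± 0.96 (unadjusted p = 0.0416, adjusted p = 0.583). Thbs1 differed by -0.06 ± 0.43 at ZT3, with an interaction of 2.16 ± 0.60 (unadjusted p = 0.00156), and Irs2 by 0.13 ± 0.28, with 1.40 ± 0.40 (unadjusted p = 0.0019). Il15 differed by 0.11 ± 0.14 at ZT3, with an interaction of -0.76 ± 0.20 (unadjusted p = 0.00105). These 3 interactions had an adjusted p of 0.583. Of the 78 higher genes 67 were above 0 at ZT3 (median 0.16) and of the 26 lower genes 19 were below 0 (median -0.07), and 5 and 1 of them had an unadjusted p under 0.05 there. Of all genes 51.8% were above 0 at ZT3. At an unadjusted limma p under 0.05, 1.15% of all genes were higher there and 1.12% lower.

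Some libraries at ZT3 were also high in genes that were higher at ZT15. The zero here is the ZT15 sham mean, which helped choose these genes, so medians above 0 are in part given by that choice. Differences among the ZT3 libraries use the same zero. The sham library ZT3_SED_1 had a median of 0.65 over the 78 genes relative to the ZT15 sham mean, and 69 of them lay above all 6 ZT15 sham libraries. The other 5 ZT3 sham libraries had medians of 0.04 to 0.19. ZT3_RUN_5, ZT3_RUN_2 and ZT3_RUN_3 had medians of 0.75, 0.66 and 0.53, and ZT3_RUN_6, ZT3_RUN_4 and ZT3_RUN_1 of 0.27, 0.10 and 0.06. In the 26 lower genes ZT3_SED_1 and ZT3_RUN_5 had medians of -0.33 and -0.35, near the -0.32 of ZT15_RUN_3. For Irf4 the value in ZT3_SED_1 was 492, against at most 191 in the other ZT3 sham libraries.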

How the data were processed

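RNA-seq of inguinal white adipose tissue was used from all 24 libraries, made with a stranded kit from total RNA without ribosomal RNA, per the labels' protocols. The deposited values are normalized signal per gene: reads brought to a common scale by TMM library factors, as the values themselves show. All of them gave whole reads when rescaled (100%, tolerance 0.01). The submitters' processing notes name STAR, Subread 1.6.2, featureCounts and limma 3.48.3. Those notes and the labels state neither genome build nor annotation, and no strand setting of the counting.

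log2(value + 1) was fitted with limma 3.58.1 (lmFit, eBayes with trend, R 4.3.3) as 4 group means over the 24 libraries, with RUN minus SED at ZT15, at ZT3 and their difference as contrasts and Benjamini-Hochberg adjustment over 16233 genes (threshold 0.05). As alternatives added after seeing the data, edgeR 4.0.16 (quasi-likelihood) and DESeq2 1.42.0 were run on the recovered reads, and the ZT15 libraries with Myh4 above 5000 were left out. The other alternatives were another scaling, filter, pseudocount, variance model, sample set, block or threshold, marker scores as covariates, and leaving out each library or the 3 with Cd79a above 5. Scripts were tested on simulated data.

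Members and gene lists were chosen with earlier results of these data known. Any gene past the threshold could be named. Full values were given for the 20 higher and 8 lower genes of largest change without a Gm or Rik symbol, for list members past the threshold, for the 2 most abundant and the smallest-p member of a list with none, and for a few textbook markers. Positions, biotypes and exons came from GENCODE M21 by gene ID, and promoter windows from RefSeq by symbol.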

Additional observations from a re-analysis of the deposited data

Results flagged for a closer look

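In these groups of 6, a single library lay apart from the nearest other by more of the group's range than Dixon's 95% critical value in 20 of the 368 groups tested (184 named genes, sham and exercised at ZT15), or 5.43%. Chance gives about 5%, so this number is near that share and is no sign of unusual libraries by itself. ZT15_RUN_3 was low in Crem (23.8, nearest other 41.7), Ist1 (92.1, nearest 103) and 9330188P03Rik (1.56, nearest 2.76), and ZT15_RUN_5 was low in Zfp128 (2.46, nearest 4.55). Among the sham libraries, ZT15_SED_6 was high in Cpeb2 (95.9, nearest 67.3) and Slx1b (10.6, nearest 9.50), ZT15_SED_2 high in Gm17230 (1.82, nearest 1.48), and ZT15_SED_3 low in Gm17415 (1.21, nearest 1.63) and Krt23 (0.0336, nearest 0.134).

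ZT15_SED_5, the sham library highest in Cd79a, was low in genes of fat and connective tissue: Adipoq (1223, nearest 2227), Cfd (4135, nearest 7430), Col1a2 (645, nearest 1529), Col3a1 (2005, nearest 4519), Klf9 (90.7, nearest 141) and Arl4a (196, nearest 282). ZT15_SED_1, the sham library high in Myh4, was high in the ATP synthase subunits Atp5b (2068, nearest 1598) and Atp5a1 (1409, nearest 1021). Among exercised libraries, ZT15_RUN_1 was high in Egr1 (60.5, nearest 21.8), ZT15_RUN_2 low in Mlxipl (88.9, nearest 139) and ZT15_RUN_6 low in Hsp90b1 (396.8, nearest 475).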

How the results depend on the processing

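Over the 37 alternative settings, none of the values of the 184 named genes reversed among calls: 5453 of 6780 kept direction and side of the threshold, 1150 lost a call, 63 gained one, and 114 changed sign with neither value past the threshold. The settings reuse most or all of the same libraries, so a kept direction is no separate support. The ZT15 count of 104 (78 higher, 26 lower) was 22 (16 and 6) without the Cd79a-high libraries, 0 (0 and 0) without the Myh4-high libraries, 561 (329 and 232) with DESeq2, 300.0 (211 and 89) at an adjusted p under 0.1 and 34 (34 and 0) with a fold of 2 required. Higher genes were 139 with centring on library medians. Lower genes were 16 there, 5 with quantile normalization and 15 with only the 12 ZT15 libraries fitted. Leaving out 1 library in turn gave 16 to 293 genes (15 to 198 higher, 1 to 113 lower). The interaction count of 0 was 239 with DESeq2. With neighbouring title numbers as a replicate block the ZT15 count was 19 (18 higher, 1 lower). Correlations within such pairs ran from -0.49 to 0.84, so the numbers were not taken to pair samples. The fits that left some libraries out also had fewer libraries, and the cause of these differences was not tested. Errors, which measure the spread between libraries, were wide also in an abundant gene such as Irf4 (SE 0.68).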
